A study of Mus musculus with 4 samples.

Results

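The genes described here encode proteins of the vascular basement membrane, the sheet of matrix on which endothelial cells rest. They are the type IV collagen chains Col4a1 and Col4a2, the laminin chains Lama4, Lama5, Lamb1 and Lamc1, the linker proteins Nid1 and Nid2, the heparan sulfate proteoglycan Hspg2 (perlecan) and the collagen-binding glycoprotein Sparc. They were chosen by name, as an established group of genes, and all 10 were found among the 21578 genes of the deposited tables. All 10 also passed the filter on low counts, which left 15909 tested genes. RNA was sequenced from brain endothelial cells of C57BL/6 mice at postnatal day 0 (P0), with 2 libraries from Pd1fl/fl mice and 2 from Pd1cKO-Tie2 mice. Both genotypes carry floxed alleles of Pd1, the gene of the receptor PD-1 (symbol Pdcd1), and the Pd1cKO-Tie2 mice also carry a Tie2-Cre transgene that removes Pd1 in the endothelial lineage. The Tie2 promoter is also known to drive Cre in blood-forming and some myeloid cells, and deletion in such cells was not measured here. The cells were purified by flow cytometry, and the sort of cortical endothelial cells in the study's methods uses antibodies to CD31 and CD45. How many animals a library holds is not given in the sources used here, so p-values measure only the spread between these libraries.

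Basement membranes are built from a laminin network bound to cell surface receptors and a network of crosslinked type IV collagen, which nidogens and perlecan join to each other. In endothelial membranes the laminin trimers hold an alpha 4 or an alpha 5 chain together with beta 1 and gamma 1 chains, and the alpha 4 chain is the earlier one in development. In the brain, endothelial cells and pericytes both lay down this matrix, which lies beneath the endothelial tube and inside the endfeet of astrocytes.

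The total count was between 13715837 and 14359990 reads in the Pd1fl/fl libraries and between 14157027 and 24147311 reads in the Pd1cKO-Tie2 libraries. Replicate numbers come from the table columns, and the second Pd1cKO-Tie2 column has a number that no sample label carries, so it is known by genotype alone. The deleted gene, Pdcd1, had 32 reads in Pd1fl/fl replicate 1 and 0 in Pd1fl/fl replicate 2 and both Pd1cKO-Tie2 libraries, so it did not pass the filter. Its only reads came from the library that stood apart in neutrophil genes (below), so its loss could not be checked here. Xist, which is transcribed from the inactive X chromosome of females, had 0 reads in both Pd1fl/fl libraries, 6706 in Pd1cKO-Tie2 replicate 1 and 378 in replicate 2. The Y-linked gene Ddx3y had between 1249 and 5656 reads in every library. A difference in sex makeup therefore goes with genotype here, and the effects of these cannot be told apart. Pd1fl/fl replicate 1 stood apart in neutrophil genes, whose summed level was 738 CPM (reads on the genes scaled to a common library total) there and at most 1.88 CPM in the other libraries. All 10 endothelial markers looked up had reads in every library, and Cldn5, a tight junction protein, was between 4763.9 and 6992.7 CPM.

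Col4a1 and Col4a2 lie head to head on chromosome 8 and are transcribed away from each other, Col4a1 on the minus strand from 11312826 and Col4a2 on the plus strand from 11312805 (GRCm38.p6). Their first exons overlap by 22 bases at chr8:11312805-11312826. This shared stretch is shown on the plus strand because both chains, whose levels are compared below, start in it (RefSeq, GRCm38.p6).

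Col4a1 and Col4a2 shared start: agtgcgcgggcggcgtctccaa

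RefSeq promoter sequences were matched for 7 of the 10 genes, leaving out Lama4, Lamc1 and Nid2. The GC box, searched as GGGCGG on both strands in the full 250 bases before each RefSeq start, occurred in 5 of these 7 genes and in 32.7% of all 32851 promoters of that length. It was found 5 times for Hspg2, 4 times for Lama5, 2 times each for Col4a2 and Lamb1, 1 time for Nid1 and 0 times for Col4a1 and Sparc. The motif CCAAT occurred in 4 of the 7, against 33.8% of all promoters, and TATAAA in 0 of the 7, against 12.4%. The sequences before Hspg2 and Lama5 are given because these genes, the lowest of the 10 per length in these cells, held the most GC boxes of the matched promoters. Capitals mark GC boxes on either strand, each sequence runs 5′ to 3′ on its gene's strand, and both come from RefSeq on GRCm38.p6. The printed stretch for Hspg2 was shortened to end before the earlier GENCODE start. For Sparc the GENCODE start lies so far ahead of the RefSeq start that the 250 bases searched fall inside the GENCODE gene. The bases searched for Col4a2 lie inside the Col4a1 gene, and those for Col4a1 inside the Col4a2 gene. The start shared by both, printed above without marks, also holds GGGCGG, which lies outside both searched stretches and was not counted. The printed stretch for Hspg2 is chr4:137468553-137468768, plus strand, and that for Lama5 is chr2:180225860-180226109, minus strand.

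Hspg2: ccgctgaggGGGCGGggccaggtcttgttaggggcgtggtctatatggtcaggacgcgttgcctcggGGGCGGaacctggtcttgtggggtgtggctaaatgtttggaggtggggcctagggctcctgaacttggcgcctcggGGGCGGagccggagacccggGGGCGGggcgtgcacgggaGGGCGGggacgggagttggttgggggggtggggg

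Lama5: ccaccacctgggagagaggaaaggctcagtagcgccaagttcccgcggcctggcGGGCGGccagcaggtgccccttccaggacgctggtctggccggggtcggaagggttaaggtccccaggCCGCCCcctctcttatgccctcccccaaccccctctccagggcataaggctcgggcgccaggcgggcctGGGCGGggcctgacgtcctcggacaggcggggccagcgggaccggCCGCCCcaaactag

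The 10 genes were, with the exception of Lama5 and Hspg2, among the most abundant transcripts of these cells. By mean CPM scaled with edgeR's TMM method, 8 of them lay at or above percentile 96 of the tested genes in both genotypes. Hspg2 lay at percentile 88.5 in both, and Lama5 at percentile 50.5 in Pd1fl/fl and 58.5 in Pd1cKO-Tie2 cells. To compare genes with each other, CPM was divided by the length of each gene's exons in kilobases. On this scale the mean over the 4 libraries ran from 613 for Sparc to 1.83 for Lama5, a 335-fold range. Below Sparc came Col4a2 at 227, Col4a1 at 170, Nid1 at 96.8, Nid2 at 71.2 and Lama4 at 70.0 CPM per kilobase. The deposited position of Nid2 differs from that in GENCODE M21, which gave its exon length, so its level per kilobase is less certain. Lamc1 at 38.6, Lamb1 at 37.5 and Hspg2 at 8.05 followed. The ranges over the 4 libraries overlapped between Nid2 and Lama4 and between Lamc1 and Lamb1, so the order within these neighbouring pairs was not set beyond their spread. All other neighbours in the order had separate ranges, and 6 of the 10 genes held the same rank in every library.

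**Figure D1:**
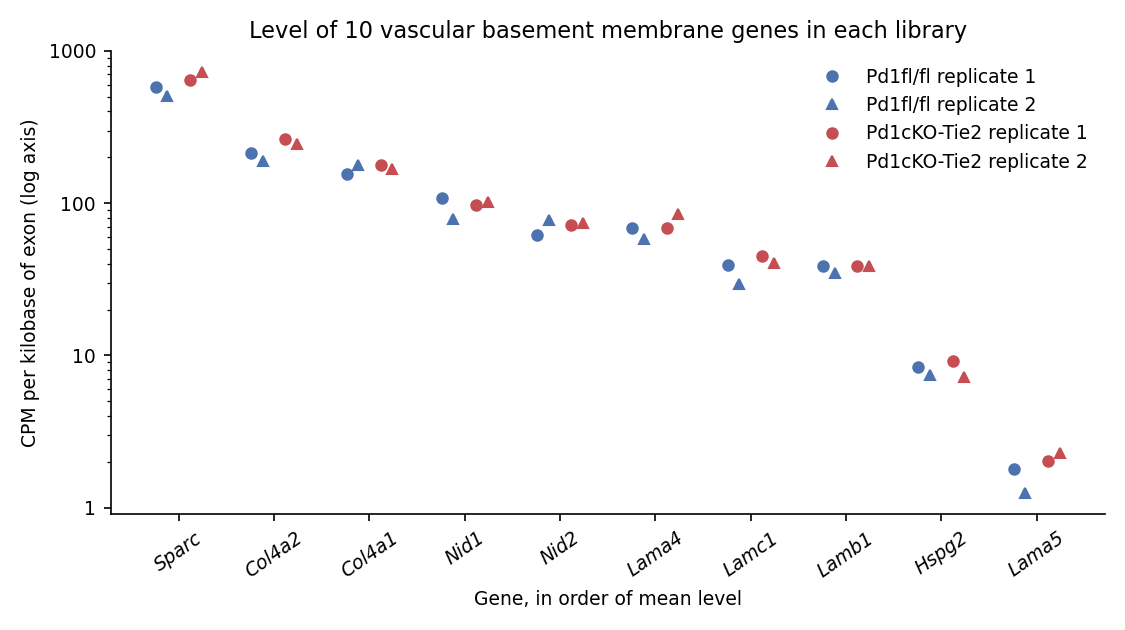
Level of each basement membrane gene in each of the 4 libraries, in TMM-scaled CPM per kilobase of exon on a log axis, with genes ordered by their mean. Points are single libraries (blue, Pd1fl/fl; red, Pd1cKO-Tie2; circles, replicate 1; triangles, replicate 2), and the order from Sparc at 613 to Lama5 at 1.83 is far wider than the spread between libraries of any gene.

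The genotypes were compared to see whether the levels of these genes differed with deletion of Pd1. The study called genes changed when they differed 2-fold or more and p did not exceed 0.05, and by this criterion 0 of the 10 genes differed, against 4.02% of all tested genes (edgeR, quasi-likelihood test). DESeq2, limma-voom and edgeR's likelihood ratio test gave 0 of 10 as well. The fitted fold change was above 1 in all 10 genes, with a median log2 fold change of 0.19 and a range from 0.05 for Hspg2 to 0.49 for Lama5. Over all tested genes the median was 0.00 and 49.6% were above 0, and over the 7208 tested genes at least as abundant as Lama5 these were 0.04 and 55.9%. When libraries were scaled by their total alone, the median of all tested genes was -0.07, that of the 10 genes was 0.13, and 8 of the 10 were above 0. An unadjusted p under 0.05 was reached by 2 of the 10, Sparc and Col4a2, against 6.39% of all tested genes, and both were higher in Pd1cKO-Tie2 cells, against 2.84% in that direction. With Benjamini-Hochberg adjustment 0 of the 10 had an adjusted p under 0.05, as did 0% of all tested genes. Over the same genes DESeq2 gave 116 with an adjusted p under 0.05 and the likelihood ratio test 82, with 0 of the 10 genes among them in either.

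The errors of these genes were small enough to bound most of the changes. The 95% confidence interval of the fold change lay within 2-fold on both sides for 9 of the 10 genes, against 27.2% of all tested genes and 59.3% of those at least as abundant as Lama5. Only the interval of Lama5 reached past a 2-fold rise. The biological coefficient of variation was between 0.13 and 0.303 for the 10 genes, with a median of 0.15. Its median was 0.385 over all tested genes and 0.226 over those at least as abundant as Lama5. In 5 of the 10 genes, Col4a2, Lama4, Lama5, Lamc1 and Sparc, the Pd1cKO-Tie2 libraries were both above either Pd1fl/fl library, against 17.7% of all tested genes. They were below either Pd1fl/fl library in 0 of the 10, against 18.1%. The number above was 4 with upper quartile scaling, where Lama4 overlapped, and 3 with library size scaling, where Lama4 and Lamc1 overlapped. The genotype difference on the log2 scale exceeded the larger of the differences between replicates for 2 of the 10 genes, Sparc and Col4a2. The share of all tested genes for which this held was not computed, so whether this count is unusual is not known.

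**Figure D2:**
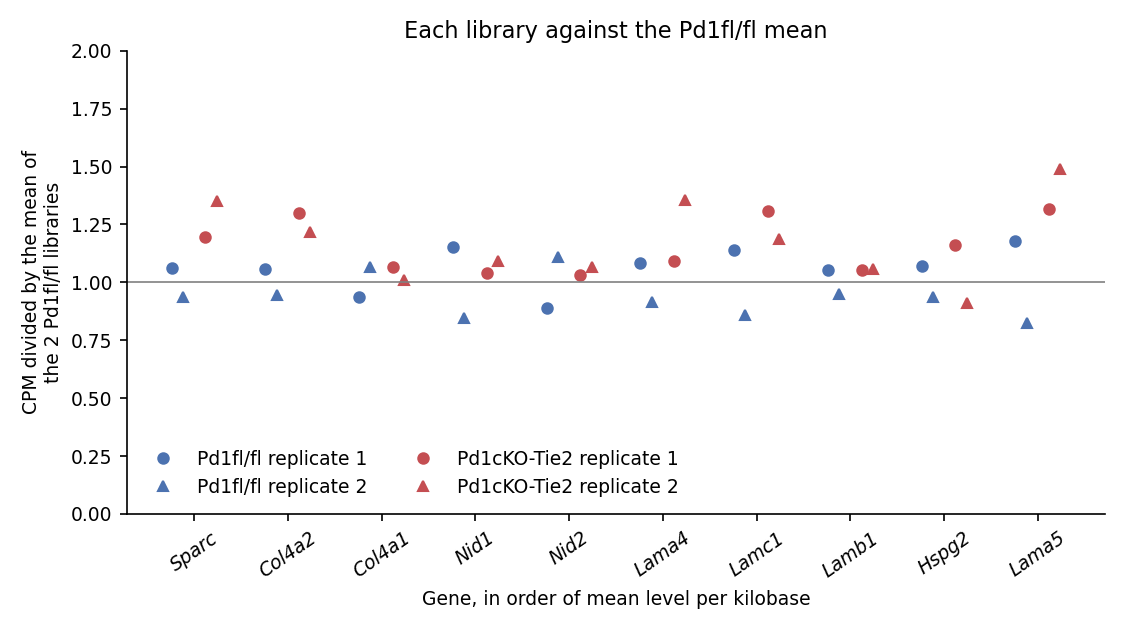
CPM of each library divided by the mean of the Pd1fl/fl libraries of the same gene (grey line at 1), with colours by genotype (blue, Pd1fl/fl; red, Pd1cKO-Tie2) and symbols by replicate (circle, 1; triangle, 2). The red points lie above both blue points for Sparc, Col4a2, Lama4, Lamc1 and Lama5 and overlap the blue points for the other genes.

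**Figure D3:**
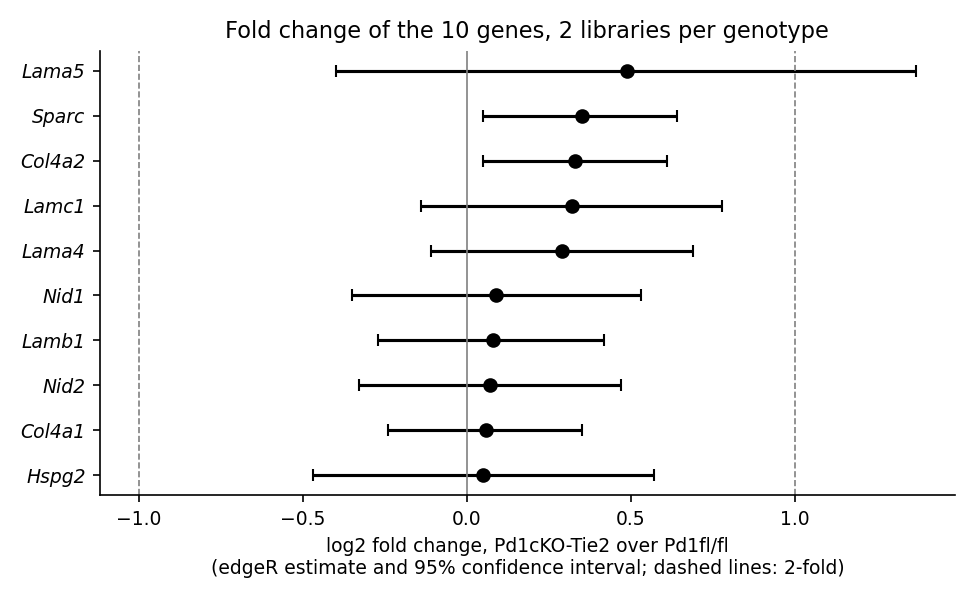
Log2 fold change of each gene, Pd1cKO-Tie2 over Pd1fl/fl, as fitted by edgeR, with its 95% confidence interval (2 libraries per genotype). All estimates lie between 0.05 and 0.49, and Lama5 alone has an interval that crosses the dashed line of a 2-fold rise.

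Type IV collagen is the main structural network of the membrane, and its common form is a trimer with more alpha 1 than alpha 2 chains. Col4a2 (ENSMUSG00000031503) was at 1407.9 and 1258.0 CPM in the Pd1fl/fl libraries and at 1733.1 and 1620.6 CPM in the Pd1cKO-Tie2 libraries. Both Pd1cKO-Tie2 libraries were thus higher, and the log2 fold change was 0.33 ± 0.11 (SE), a 1.26-fold difference with a 95% interval from 1.03 to 1.53 (adjusted p = 0.738, edgeR). Without Pd1fl/fl replicate 1 the log2 fold change was 0.41 (95% interval 0.10 to 0.73). The interval included 0 without Pd1fl/fl replicate 2, at 0.25 (-0.05 to 0.56). It also did so without Pd1cKO-Tie2 replicate 1, at 0.29 (-0.11 to 0.69), and without replicate 2, at 0.38 (-0.02 to 0.78). The same held with the trend with GC content removed, at 0.23 (-0.06 to 0.52), and with the likelihood ratio test (-0.04 to 0.70). In all other alternatives the interval excluded 0. Col4a1 (ENSMUSG00000031502) was at 1162.4 and 1324.6 CPM in the Pd1fl/fl and at 1328.3 and 1256.0 CPM in the Pd1cKO-Tie2 libraries, which overlapped. Its log2 fold change was 0.06 ± 0.12 with an interval of the fold from 0.85 to 1.28 (adjusted p = 1, edgeR), and it was -0.04 without Pd1fl/fl replicate 1 and -0.01 with library size scaling.

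The ratio of Col4a1 to Col4a2 within a library does not depend on how libraries are scaled. Per kilobase of exon it was 0.732 and 0.934 in the Pd1fl/fl libraries and 0.68 and 0.687 in the Pd1cKO-Tie2 libraries, so Col4a2 had more reads per length in every library. The mean was 0.833 ± 0.143 in Pd1fl/fl and 0.683 ± 0.0054 in Pd1cKO-Tie2 (SD, n = 2 libraries each). The groups did not overlap, but Pd1fl/fl replicate 1 was closer to the Pd1cKO-Tie2 libraries than to Pd1fl/fl replicate 2. With 2 libraries against 2, a two-sided exact permutation test cannot give a p below 0.333, which was its value here. Besides the 22 bases shared with Col4a1, the exons of Col4a2 share 43 bases with Gm15419 on the other strand.

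Of the laminin alpha chains, Lama4 was far the more abundant. Lama4 (ENSMUSG00000019846) was at 823 and 697 CPM in Pd1fl/fl and at 829 and 1029 CPM in Pd1cKO-Tie2 libraries. Pd1cKO-Tie2 replicate 1 was at nearly the level of Pd1fl/fl replicate 1, so the groups barely separated, and the log2 fold change was 0.29 ± 0.16 (95% interval of the fold, 0.93 to 1.61, adjusted p = 0.914, edgeR). Lama5 (ENSMUSG00000015647) was at 20.4 and 14.3 CPM in Pd1fl/fl and at 22.8 and 25.8 CPM in Pd1cKO-Tie2 libraries. It rested on the fewest reads of the 10 genes, 203 in the smallest case, and its log2 fold change of 0.49 ± 0.36 had an interval of the fold from 0.76 to 2.59 (adjusted p = 0.974, edgeR). Depending on the library left out, the log2 fold change was between 0.25 and 0.77 for Lama5 and between 0.13 and 0.44 for Lama4. Reads per kilobase on Lama4 were 38.0 and 46.1 times those on Lama5 in the Pd1fl/fl libraries and 34.3 and 37.6 times in the Pd1cKO-Tie2 libraries. Lama4 thus made up between 97.2% and 97.9% of the alpha 4 and alpha 5 signal per length in every library. The difference between genotypes in the mean log2 ratio of Lama4 to Lama5 was -0.22 (exact permutation test of the ratios, p = 0.333, the smallest possible).

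The beta 1 and gamma 1 chains are shared by both trimers. Lamb1 (ENSMUSG00000002900) was at 381 and 343 CPM in Pd1fl/fl and at 381 and 383 CPM in Pd1cKO-Tie2 libraries, with a log2 fold change of 0.08 ± 0.14 (interval of the fold, 0.83 to 1.34, adjusted p = 1, edgeR). Lamc1 (ENSMUSG00000026478) was at 324 and 244 CPM in Pd1fl/fl and at 371 and 337 CPM in Pd1cKO-Tie2 libraries. Both Pd1cKO-Tie2 libraries were higher for Lamc1, but its log2 fold change of 0.32 ± 0.19 did not pass the test (interval of the fold, 0.91 to 1.71, adjusted p = 0.925, edgeR). It was 0.54 without Pd1fl/fl replicate 1 (95% interval 0.06 to 1.01) and 0.13 without Pd1fl/fl replicate 2 (-0.33 to 0.58). Per kilobase, Lamb1 to Lamc1 was 0.98 and 1.17 in the Pd1fl/fl libraries and 0.856 and 0.947 in the Pd1cKO-Tie2 libraries, near equal reads per length for both chains. The means were 1.08 ± 0.137 and 0.902 ± 0.0641 (SD, n = 2 each, exact permutation p = 0.333).

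Nidogens link laminin to type IV collagen. Nid1 (ENSMUSG00000005397) was at 750 and 550 CPM in Pd1fl/fl and at 677 and 710 CPM in Pd1cKO-Tie2 libraries. Nid2 (ENSMUSG00000021806) was at 320 and 399 CPM in Pd1fl/fl and at 371 and 383 CPM in Pd1cKO-Tie2 libraries. For both genes the Pd1cKO-Tie2 libraries lay between the Pd1fl/fl libraries, which differed 1.36-fold for Nid1 and 1.25-fold for Nid2, in opposite directions. The log2 fold changes were 0.09 ± 0.18 for Nid1 (interval of the fold, 0.79 to 1.45, adjusted p = 1, edgeR) and 0.07 ± 0.16 for Nid2 (0.8 to 1.39, adjusted p = 1). They were -0.11 for Nid1 without Pd1fl/fl replicate 2 and -0.08 for Nid2 without Pd1fl/fl replicate 1. The ratio of Nid1 to Nid2 per kilobase was 1.75 and 1.03 in the Pd1fl/fl libraries and 1.36 and 1.38 in the Pd1cKO-Tie2 libraries, so the Pd1fl/fl libraries spanned the Pd1cKO-Tie2 values. The size of this ratio rests on the less certain exon length of Nid2. The counts of both genes are uncertain, since the exons of Nid2 share 437 bases with Rtraf and those of Nid1 share 143 bases with Gm48682, each on the other strand, and the use of strand in counting is not given in the sources used here.

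**Figure D4:**
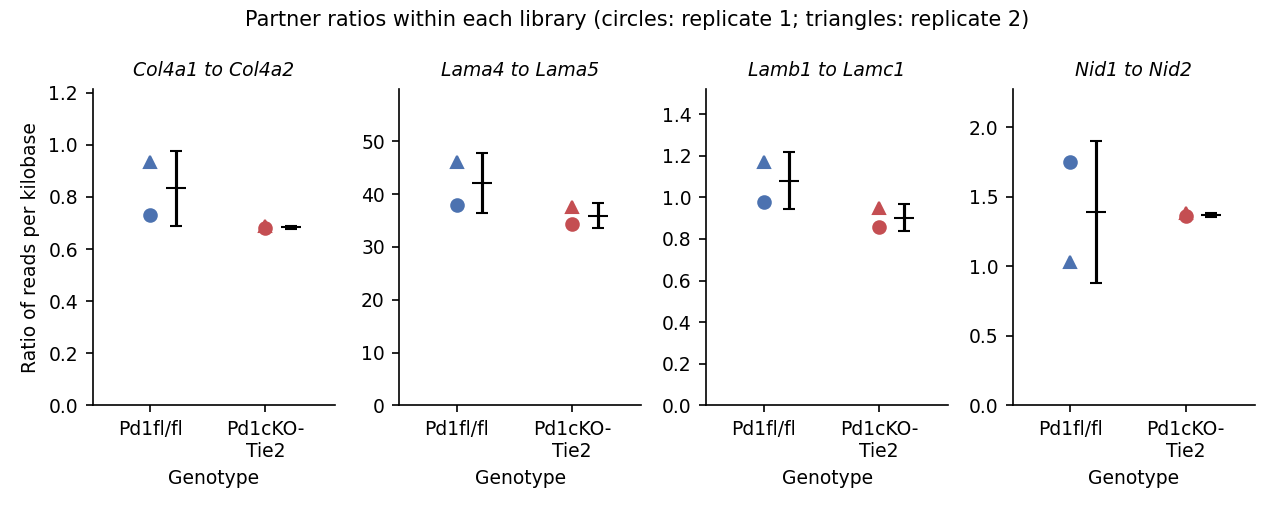
Ratio of reads per kilobase of exon between partner genes within each library, for Col4a1 to Col4a2, Lama4 to Lama5, Lamb1 to Lamc1 and Nid1 to Nid2, with axes from 0. Coloured points are libraries and black bars the mean ± SD (n = 2 per genotype); the first 3 ratios were lower in both Pd1cKO-Tie2 libraries, and for Nid1 to Nid2 the Pd1fl/fl values of 1.75 and 1.03 lay on either side of them.

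Perlecan carries heparan sulfate chains that bind growth factors. Hspg2 (ENSMUSG00000028763) was at 121 and 106 CPM in Pd1fl/fl and at 131 and 103 CPM in Pd1cKO-Tie2 libraries. The Pd1cKO-Tie2 libraries lay on either side of both Pd1fl/fl libraries, and the log2 fold change was 0.05 ± 0.21 (interval of the fold, 0.72 to 1.48, adjusted p = 1, edgeR). Its sign depended on the setting, with -0.13 without Pd1cKO-Tie2 replicate 1, -0.04 without Pd1fl/fl replicate 2, -0.06 with the trend with GC content removed and -0.01 with library size scaling. Sparc binds collagens and is secreted by endothelial and other cells. Sparc (ENSMUSG00000018593) was at 2176.6 and 1914.5 CPM in Pd1fl/fl and at 2442.2 and 2760.5 CPM in Pd1cKO-Tie2 libraries. Both Pd1cKO-Tie2 libraries were higher, and the log2 fold change was 0.35 ± 0.12, a 1.27-fold difference with an interval from 1.04 to 1.56 (adjusted p = 0.738, edgeR). It was 0.44 without Pd1fl/fl replicate 1 (95% interval 0.13 to 0.75) and 0.44 without Pd1cKO-Tie2 replicate 1 (0.06 to 0.81). It was 0.26 without Pd1fl/fl replicate 2 (-0.05 to 0.57) and 0.26 without Pd1cKO-Tie2 replicate 2 (-0.13 to 0.64), where the interval included 0.

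Summed over the 10 genes, the level was 7485.9 and 6849.5 CPM in Pd1fl/fl and 8287.1 and 8607.3 CPM in Pd1cKO-Tie2 libraries. The means were 7167.7 ± 450 and 8447.2 ± 226 CPM (SD, n = 2 each), a 1.18-fold difference without overlap between genotypes (exact permutation p = 0.333, the smallest possible). Sparc took between 28% and 32.1% of this sum. The log2 difference was 0.24, and was 0.18 with library size scaling, 0.26 with each gene weighted by its length and between 0.17 and 0.30 when 1 library was left out.

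Of the cell type markers, those of endothelial cells moved alongside this sum. All 10 endothelial markers were higher in both Pd1cKO-Tie2 libraries than in both Pd1fl/fl libraries, with a median log2 fold change of 0.35, though 0 of the 10 met the criterion. Of all tested genes 17.7% showed this order, and of those at least as abundant as Lama5 21.9%. Cldn5 had a log2 fold change of 0.40 and Esam, a junctional adhesion protein, of 0.27. The summed level of the 10 markers was 10222.8 and 9261.8 CPM in Pd1fl/fl and 12092.7 and 12906.1 CPM in Pd1cKO-Tie2 libraries, a 1.28-fold difference. Cldn5 alone made up most of this marker sum, at 5504.6 and 4763.9 CPM in Pd1fl/fl and 6547.8 and 6992.7 CPM in Pd1cKO-Tie2 libraries. The 10 basement membrane genes divided by these 10 markers gave 0.732 and 0.74 in the Pd1fl/fl libraries and 0.685 and 0.667 in the Pd1cKO-Tie2 libraries. Relative to this marker sum, in which Cldn5 weighs most, the basement membrane genes were therefore lower in Pd1cKO-Tie2, at 0.92 times the Pd1fl/fl ratio. The mean ratio was 0.736 ± 0.00514 in Pd1fl/fl and 0.676 ± 0.013 in Pd1cKO-Tie2 (SD, n = 2 each, exact permutation p = 0.333). The ratio without Cldn5 was not tested. In bulk samples such as these, a different share of a cell type and a different amount of RNA per cell cannot be told apart.

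Other cells that make or contact this matrix were present too. Pericyte and smooth muscle markers summed to 5757.2 and 3756 CPM in Pd1fl/fl and to 3857.9 and 3833.7 CPM in Pd1cKO-Tie2 libraries, led by Rgs5 and Kcnj8, and 0 of the 10 tested met the criterion. Acta2 and Tagln of smooth muscle were below 1 CPM in all libraries. Fibroblast markers summed to between 49.8 and 132 CPM, with Col1a2 and Col3a1 the highest, and Col1a1 had reads in Pd1fl/fl replicate 1 only. Radial glia and astrocyte markers summed to 835 and 816 CPM in Pd1fl/fl and to 563 and 401 CPM in Pd1cKO-Tie2 libraries. Of the 8 tested, Fabp7, a fatty acid binding protein of radial glia, was lower by the criterion (log2 fold change -1.01, adjusted p = 0.735, edgeR), Slc1a3, a glutamate transporter, was at -0.79, and Hopx, also of radial glia, met the criterion in the other direction with 0 and 1 reads in the Pd1fl/fl libraries and 358 and 43 in the Pd1cKO-Tie2 libraries. Fabp7 no longer met the criterion without Pd1fl/fl replicate 2 (-0.87) or Pd1cKO-Tie2 replicate 2 (-0.91), with the GC trend removed (-0.95), with the length trend removed or with limma-voom (-0.99), and Hopx no longer without Pd1cKO-Tie2 replicate 1 or with limma-voom. Microglia and macrophage markers, with Csf1r and P2ry12 the highest, summed to 1013.9 and 1369.1 CPM in Pd1fl/fl and to 424 and 926 CPM in Pd1cKO-Tie2 libraries, and 0 of 7 met the criterion. The 2 tested neutrophil markers, Ngp and S100a8, met it as lower on the reads of Pd1fl/fl replicate 1, since Ngp had 5950 reads there and at most 28 in any other library, while Ltf, Camp and Elane had 0 reads in the others. Neuron markers, with Map2 and Dcx the highest, summed to 837 and 1224 against 1029.4 and 894 CPM, and oligodendrocyte lineage markers, with Olig1 and Cspg4, to 162 and 87.4 against 182 and 93.7 CPM. Erythroid markers, with Hba-a1 and Hbb-bs, summed to 642 and 547 against 572 and 1060.3 CPM, and 0 genes of these 3 lists met the criterion. Of the oligodendrocyte lineage markers, Cspg4 is also in the pericyte and smooth muscle list and Pdgfra in the fibroblast list. The part of all these cell types in the levels of the 10 genes was not tested.

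**Figure D5:**
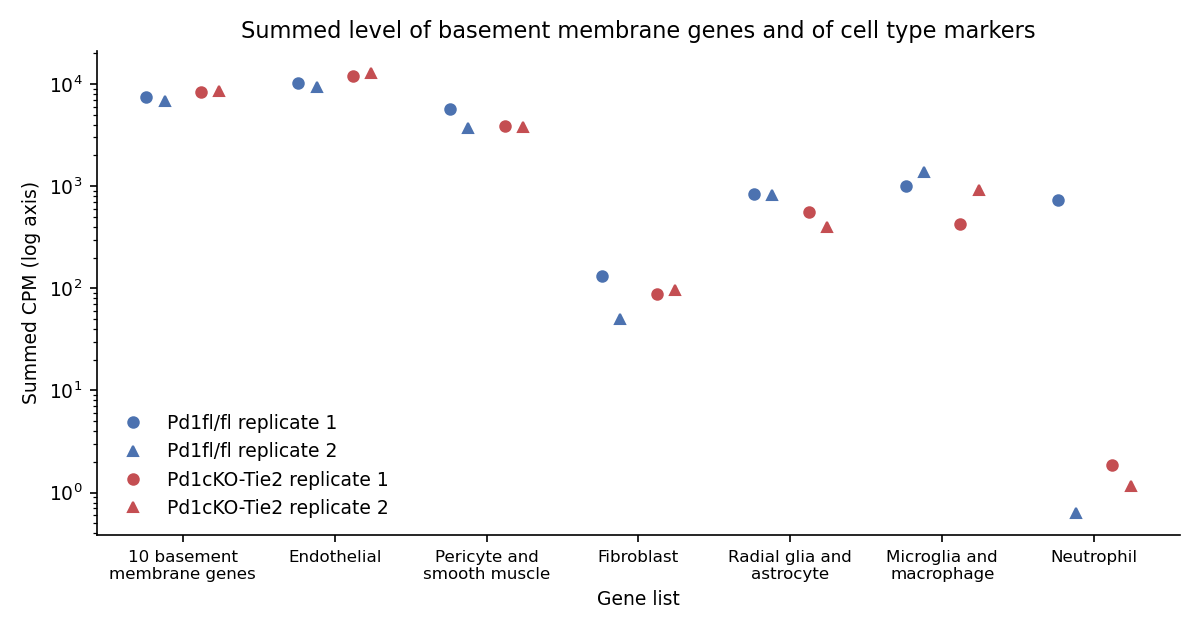
Summed CPM (log axis) of the 10 basement membrane genes and of marker genes of 6 cell types in each library (blue, Pd1fl/fl; red, Pd1cKO-Tie2; circles, replicate 1; triangles, replicate 2). The basement membrane genes and the endothelial markers are higher in both Pd1cKO-Tie2 libraries. The radial glia and astrocyte markers and the microglia and macrophage markers are lower in both. The neutrophil markers are high in Pd1fl/fl replicate 1 alone, at 738 CPM.

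The other genes of the membrane were read from 6 lists of 66 genes in all, of which 63 were found and 59 tested. By the criterion 2 of the 59 were lower and 0 higher in Pd1cKO-Tie2 cells, a share near the 4.02% of all tested genes. Of the other collagen IV chains 3 of 4 were tested and 0 met the criterion, and their summed level was between 13.9 and 23.6 CPM, with Col4a3 and Col4a5 the highest. Of the other laminin chains 6 of 7 were tested and 0 met it. Lamb2, the beta 2 chain, was by far the highest of these at 188 and 226 CPM in Pd1fl/fl and 297 and 256 CPM in Pd1cKO-Tie2 libraries, with no overlap (log2 fold change 0.42, adjusted p = 0.803, edgeR). Lama1, the alpha 1 chain of early epithelial membranes, was at 8.51 and 27.3 against 23.2 and 47.4 CPM, which overlapped.

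Of 13 tested other basement membrane proteins 0 met the criterion, while 9 had both Pd1cKO-Tie2 libraries above both Pd1fl/fl libraries, with a median log2 fold change of 0.28. That pattern held for 17.7% of all tested genes and 21.9% of those at least as abundant as Lama5, and with library size scaling for 7 of the 13 and 14.7% of all tested genes. Sparcl1, a relative of Sparc, was the most abundant at 4911.9 and 4662 CPM in Pd1fl/fl and 5189 and 6447.2 CPM in Pd1cKO-Tie2 libraries (log2 fold change 0.28, adjusted p = 0.828, edgeR). Fn1, fibronectin, was at 0.12 (adjusted p = 1, edgeR). Chosen after their values were seen, Col18a1 (log2 fold change 0.56), Egfl7 (0.36) and Vwa1 (0.32) were the members of this list with an unadjusted p under 0.05 (edgeR). The adjusted p of each was 0.753. These were 3 of the 13 tested, against 6.39% of all tested genes and 2.84% in the higher direction. Of the endothelial markers, 4 of 10 had an unadjusted p under 0.05.

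The machinery that folds, exports and crosslinks collagen IV gave 0 of 15 tested genes by the criterion and a median log2 fold change of 0.03. P4hb, a subunit of prolyl 4-hydroxylase, was at 372 and 319 against 325 and 373 CPM, and Plod1, a lysyl hydroxylase, at 382 and 437 against 400 and 437 CPM. For both the genotypes overlapped. Of 11 receptors for laminin, collagen IV and nidogen, 1 met the criterion, Ddr1, a collagen receptor kinase. It had 28 and 27.7 CPM in Pd1fl/fl and 13.9 and 13.8 CPM in Pd1cKO-Tie2 libraries (a fitted 0.50 times the Pd1fl/fl level, 95% interval of the log2 fold change -1.80 to -0.21, adjusted p = 0.735, edgeR). It lay at the 2-fold limit, and when any 1 library was left out it no longer met the criterion, although the fitted level stayed at 0.50 times. Itgb1, the beta 1 integrin chain of most laminin and collagen receptors, had a log2 fold change of 0.20 and Itga6 of 0.28, neither of which met the criterion.

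Of 11 enzymes that cut the membrane, 1 met the criterion, Hpse, the heparanase that cleaves heparan sulfate. Hpse had 82 and 28 reads in the Pd1fl/fl and 0 in both Pd1cKO-Tie2 libraries, so it was at least 22.2-fold lower against a limit of 3 reads per library (adjusted p = 0.735, edgeR), a limit that covers counting error only. Without Pd1fl/fl replicate 1 this bound was 11.4-fold and Hpse no longer met the criterion. Without Pd1fl/fl replicate 2 the bound was 33-fold. With limma-voom Hpse did not meet the criterion either (log2 fold change -6.94). With at least 10 counts required in every library it was not tested. The most abundant enzymes, Adam10 and Ctsl, had log2 fold changes of 0.10 and -0.01. Mmp9, a gelatinase that degrades type IV collagen and was singled out after its values were seen, was at 157 and 72 CPM in Pd1fl/fl and 56.5 and 60.4 CPM in Pd1cKO-Tie2 libraries (log2 fold change -0.97, adjusted p = 0.76, edgeR), just short of the criterion. The value of 157 CPM was in Pd1fl/fl replicate 1, the library that stood apart in neutrophil genes. Pd1fl/fl replicate 2 lay closer to the Pd1cKO-Tie2 libraries than to replicate 1. The part of that library in the Mmp9 difference was not tested.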

How the data were processed

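The authors deposited 4 tables, each with 1 Pd1cKO-Tie2 and 1 Pd1fl/fl library, that hold raw read counts per gene and CPM (the count scaled to the library's total, with 0.5 reads for a count of 0). The submitters' processing notes name Bowtie2 2.2.3, TopHat2 2.0.12, HTSeq 0.6.0 and mm9, while 90% of the gene positions in the tables equal GENCODE M21 (GRCm38). The fold change and p-value columns of the authors' pairwise comparisons were not used. Tables were joined by gene identifier. Genes missing from a table were given 0, where at most 4 counts could be hidden. Broken lines, 5 in each of 2 files, were skipped.

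Counts were tested with edgeR 4.0.16 (R 4.3.3, quasi-likelihood, filterByExpr by genotype, TMM, no covariate), with Benjamini-Hochberg adjustment over all tested genes. Alternatives were DESeq2 1.42.0, limma-voom (limma 3.58.1), the likelihood ratio test, other scalings, filters and depths, trends with length and GC content, and leaving out each library. The depth is that given above, and a count of 0 allows 3 counts, which is between 0.125 and 0.219 scaled CPM. Exon lengths come from GENCODE M21. Named were all 10 genes, Pdcd1, and from the other lists each gene that met the criterion and the 2 with the highest mean CPM. Markers at or near 0 (Acta2, Tagln, Col1a1, Camp, Elane) were named after their values were seen. The members, lists and tests were chosen with earlier results of these data known.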

Additional observations from a re-analysis of the deposited data

How the results depend on the processing

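Under all 16 alternatives to the test across all genes, 0 of the 10 basement membrane genes met the criterion and 0 had an adjusted p under 0.05, and the 95% interval lay within 2-fold for 8 or 9 of them. Tested genes with an adjusted p under 0.05 numbered 82 with edgeR's likelihood ratio test, and 114 and 116 with DESeq2 on every gene with a count and on the filtered genes. Genes of the 10 with an unadjusted p under 0.05 numbered 0 with the likelihood ratio test, 1 with the GC trend removed and 0 to 3 when a library was left out. The direction turned for Col4a1 with library size scaling (-0.01) and for Hspg2 with library size scaling (-0.01) or the GC trend removed (-0.06). With a library left out, the log2 fold change ran from -0.04 to 0.15 for Col4a1, -0.11 to 0.34 for Nid1, -0.08 to 0.24 for Nid2 and -0.13 to 0.21 for Hspg2. The ratio of Nid1 to Nid2, with a log2 difference of 0.03, ran from -0.35 to 0.42.

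In the other basement membrane lists, 1 gene instead of 2 met the criterion without a filter, with at least 10 counts in every library, with the length trend removed and with limma-voom, and 0 to 4 with a library left out. Among the cell type markers, 4 met it, against 9 without a filter, 1 with at least 10 counts, 8 with DESeq2 on every gene with a count and 4 to 9 with a library left out. Without Pd1fl/fl replicate 1 the log2 fold changes of the neutrophil genes S100a8 and Ngp were 0.22 and 6.38, and over the left-out libraries they ran from -6.43 to 0.22 and from -14.51 to 6.38. The cause of these shifts was not tested, other than that a stricter filter leaves fewer genes to test. A left-out library leaves 1 library of its genotype, which is assumed to vary like the others. No paired analysis was possible because the sample labels of the genotypes share fewer than 2 replicate numbers. Of the 10 genes Lama5 had the fewest reads, 203 in its smallest library.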
